A study of Mus musculus with 1094 samples.

Results

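The respiratory chain was followed through mouse corticogenesis as 98 genes out of 23078 in the deposited tables. Members were taken by symbol: 13 protein genes of the mitochondrial genome (mt-Nd, mt-Co, mt-Cytb and mt-Atp symbols) and 85 nuclear genes whose symbols begin with Ndufa, Ndufb, Ndufc, Ndufs or Ndufv and a number, Sdha to Sdhd, Uqcr, Cox4 to Cox8 or Atp5. By known role 35 nuclear members belong to complex I, 4 to complex II, 8 to complex III, 19 to complex IV and 15 to complex V, and 4 symbols that the pattern also caught (Ndufa4l2, Atp5s, Atp5sl and Atp5l-ps1) were put in no complex. The mitochondrial members comprise 7 genes of complex I, 1 of complex III, 3 of complex IV and 2 of complex V.

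The chain carries electrons from NADH (complex I, NADH dehydrogenase) or succinate (complex II, succinate dehydrogenase) through complex III (the cytochrome bc1 complex) to complex IV (cytochrome c oxidase), which reduces oxygen. Complexes I, III and IV pump protons, and complex V, the ATP synthase, uses the gradient to make ATP. All complexes other than complex II are built from subunits of both genomes, so cells need transcripts from the mitochondrial DNA, copied there by a dedicated polymerase, and transcripts from nuclear chromosomes. Neural stem cells of the cortex are known for strong glycolysis, and neurons for reliance on oxidative phosphorylation.

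Single cells came from dorsal cortex of wild-type C57Bl/6 mice labelled female. Newborn neurons (NBN) and basal progenitors (BP, the intermediate progenitors that divide to give neurons) were sorted as GFP-positive cells of Tbr2::GFP mice, and neural stem cells (NSC) as GFP-positive cells of Hes5::GFP mice, so population and reporter line cannot be told apart in comparisons with NSC. The 17 libraries, each all cells of 1 population at 1 stage, were NBN at P1 and P3 (39 and 40 cells), NBN at E16.5 and E18.5 (63 and 70 cells), BP at E12.5, E14.5, E16.5, E18.5 and P0 (45 to 89 cells each), and NSC at E10.5, E11.5, E13.5, E15.5, E17.5, E18.5, P0 and P1 (47 to 88 cells each), 1094 cells in all. Values are TPM, the share of a cell's transcripts that a gene takes after division by its length, which keeps no sequencing depth, and a library's value is the mean TPM over its cells.

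The labels were checked against marker genes before the chain was described. Newborn neuron markers summed to 500 TPM or more in 38 of 39 cells of NBN P1, in 62 of 63 of NBN E16.5 and in 66 of 70 of NBN E18.5, but in 8 of 40 cells of NBN P3. In NBN P3, 38 of 40 cells reached 500 TPM of markers of another type, among them 17 with microglial, 12 with meningeal and 7 with endothelial markers, against 6 of 39 in NBN P1. NBN P3 is therefore called the library labelled NBN P3, and each result that rests on it is also given without it. Astroglial markers, not counted among these other types, reached that level in 32 cells of the library labelled NBN P3 and radial glia markers in 16, and choroid plexus markers in 4, with a mean of 11343 TPM over its cells. In BP, neuron markers reached that level in 72 of 72, 45 of 45, 79 of 89, 60 of 62 and 73 of 76 cells in age order, basal progenitor markers in 48, 22, 46, 38 and 42, and dividing-cell markers in 14, 3, 2, 3 and 4. Neuron markers also reached it in NSC, in 7 of 88, 50 of 59, 45 of 68, 84 of 86, 66 of 76, 31 of 66, 25 of 48 and 12 of 47 cells in age order. The fewest genes per cell at 1 TPM or more were found in NBN P1 (median 3189), followed by NSC P1 (3371), the library labelled NBN P3 (3390) and NSC E18.5 (3428), and the most in NBN E16.5 (5764).

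Transcripts of the mitochondrial genome took a larger share of a cell's TPM in the postnatal NBN libraries than in any other. The 13 mitochondrial genes summed to 20.2% of TPM on average in NBN P1 and 17.4% in the library labelled NBN P3. They summed to 7.54% in NBN E16.5 and 10.9% in NBN E18.5. The BP libraries in age order had 8.97%, 6.93%, 9.39%, 8.86% and 6.46%, and the NSC libraries in age order had 8.71%, 7.27%, 8.39%, 7.97%, 6.49%, 7.53%, 6.98% and 8.65%. Group means were 18.8% ± 1.94 in postnatal NBN, 9.22% ± 2.39 in embryonic NBN, 8.12% ± 1.33 in BP and 7.75% ± 0.814 in NSC (SD, n = 2, 2, 5 and 8 libraries). The BP range, 6.46% to 9.39%, was wider than the NSC range, 6.49% to 8.71%, and held it. BP E12.5, E16.5 and E18.5 lay above every NSC library and BP P0 below every NSC library. NBN E16.5 lay within both ranges.

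The 85 nuclear members together took a smaller share, and their group means lay closer together. They summed to 2.38% ± 0.413 of TPM in postnatal NBN, 2.22% ± 0.245 in embryonic NBN, 2.26% ± 0.275 in BP and 2.73% ± 0.338 in NSC. The ratio of the mitochondrial to the nuclear sum was 9.65 in NBN P1 and 6.51 in the library labelled NBN P3. It was 3.15 in NBN E16.5 and 5.34 in NBN E18.5, 3.00 to 4.53 in the 5 BP libraries and 2.32 to 3.49 in the 8 NSC libraries. TPM is a closed scale, so a larger mitochondrial share lowers every nuclear value, and a larger share cannot be told apart from less nuclear RNA per cell. These sums are descriptions of the members and were not tested.

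**Figure D1:**
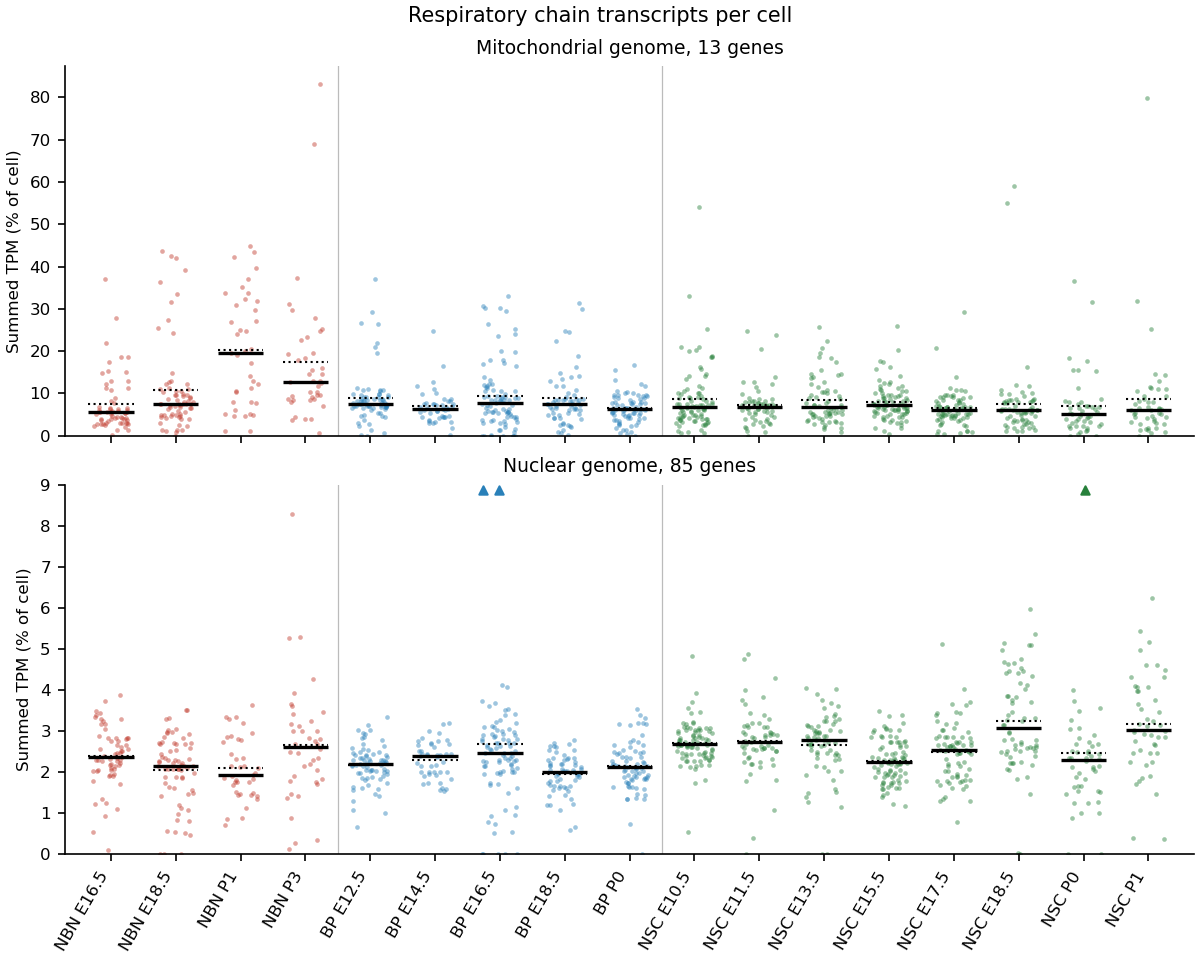
Share of each cell's TPM from the 13 mitochondrial (top) and 85 nuclear (bottom) members, in percent, for NBN, BP and NSC libraries from left to right; points are cells, solid bars medians, dotted bars means, and triangles mark cells above the axis. The NBN P1 cells spread widely about a median of 19.6%, while the median of NBN E16.5 is 5.58%.

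The order of the mitochondrial genes was nearly fixed. mt-Co3, a subunit of the catalytic core of complex IV, ranked first of the 13 and mt-Nd4, a proton-pumping subunit of complex I, ranked 8th in all 17 libraries. Averaged over libraries mt-Co3 stood at 24603 TPM, mt-Atp6 (the proton channel subunit of complex V) at 13970, mt-Co2 at 12291, mt-Co1 at 10924 and mt-Cytb at 10486 TPM. mt-Atp8 followed with 7446 TPM and mt-Nd1 with 6506 TPM, mt-Nd4 had 2775 TPM, and mt-Nd4l, the lowest, had 620 TPM. Neighbours in this order exchanged places between libraries, with mt-Co1 and mt-Cytb each ranking from 2nd to 6th. Complex IV genes made up 50.6% ± 5.85 of the mitochondrial sum, complex V genes 23.6% ± 4.63, complex I genes 15.2% ± 2.59 and mt-Cytb alone 10.6% ± 1.08 (SD, n = 17 libraries).

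Some of these genes share bases on the mitochondrial DNA, and the files do not tell how reads there were divided. mt-Atp8 and mt-Atp6 overlap by 43 bases (chromosome M, 7927 to 7969, GRCm38), which is a large part of so short a gene. The mt-Atp8 transcript (chrM:7766-7969, plus strand, GENCODE M21 on GRCm38) is shown because it is among the members called below, with the bases that mt-Atp6 also holds in capitals.
mt-Atp8: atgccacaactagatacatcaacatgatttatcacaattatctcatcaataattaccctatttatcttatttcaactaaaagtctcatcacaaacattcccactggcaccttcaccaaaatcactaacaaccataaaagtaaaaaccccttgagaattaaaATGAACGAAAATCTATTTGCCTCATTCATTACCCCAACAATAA
mt-Nd4l shares 7 bases with mt-Nd4. mt-Nd5 and mt-Nd6 share 14 bases on opposite strands, and the kit is not stated to mark strand, so their reads there cannot be told apart. Nuclear copies of mitochondrial genes, and processed copies of nuclear subunit genes, also make the division of reads uncertain.

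The first comparison set the postnatal NBN libraries against the 8 NSC libraries, in a linear model with population and age (limma on log2(mean TPM + 1), Benjamini-Hochberg adjusted over all 14072 genes tested, threshold 0.05). Of the 13 mitochondrial genes 9 rose, while 0.327% of all genes tested were called higher and 2.78% lower. The other 4 mitochondrial genes also had positive log2 changes, and the median over the 13 was 1.27 against −0.41 over all genes tested. With 2 libraries labelled postnatal NBN and no animals named, the p-values measure the spread between libraries, which may be technical.

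Among the complex IV genes, mt-Co2 carries the copper centre that takes electrons from cytochrome c. It had 29892 TPM in NBN P1 and 22703 TPM in the library labelled NBN P3, 10287 and 14382 TPM in NBN E16.5 and E18.5, 7662 to 12173 TPM (median 9777) in BP and 8376 to 13091 TPM (median 10430) in NSC. Both postnatal NBN libraries lay above every other library. The log2 change of mt-Co2 against NSC was 1.56 ± 0.21 SE (limma adjusted p = 0.00114). mt-Co3 had 63373 and 53796 TPM in NBN P1 and the library labelled NBN P3, against 15413 to 28298 TPM (median 19498) in NSC, a log2 change of 1.47 ± 0.26 (limma adjusted p = 0.00671). mt-Co1, which holds the oxygen-reducing site, had 22032 and 25729 TPM there, against 7291 to 13892 TPM (median 8817) in NSC, a log2 change of 1.27 ± 0.29 (limma adjusted p = 0.0234). For these 2 genes as well, no NSC library reached either postnatal NBN library.

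The complex V genes moved with them. mt-Atp6 had 25503 and 19157 TPM in NBN P1 and the library labelled NBN P3, 13684 and 21185 TPM in NBN E16.5 and E18.5, 11936 to 16876 TPM in BP and 8058 to 14291 TPM (median 9860) in NSC. Its log2 change against NSC was 1.34 ± 0.26 (limma adjusted p = 0.0115), and NBN E18.5 lay between the postnatal libraries. mt-Atp8, a small membrane subunit beside it, had 14301 and 10880 TPM, against 4369 to 8180 TPM (median 5143) in NSC, a log2 change of 1.42 ± 0.25 (limma adjusted p = 0.00671).

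mt-Cytb, the cytochrome b of complex III, had 24047 TPM in NBN P1 and 21013 TPM in the library labelled NBN P3, against 5960 to 13386 TPM (median 8526) in NSC, a log2 change of 1.23 ± 0.26 (limma adjusted p = 0.0194). The highest NSC value, from NSC P0, rests on a near-empty cell: in cells with 1000 or more genes NSC P0 had 6162 TPM.

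Of the 7 complex I genes, all membrane subunits, 3 rose. mt-Nd4l had 1344 and 1334 TPM in NBN P1 and the library labelled NBN P3, against 242 to 645 TPM (median 456) in NSC, a log2 change of 1.89 ± 0.38 (limma adjusted p = 0.0143). mt-Nd4 had 6072 and 4531 TPM, against 1579 to 2816 TPM (median 2278) in NSC, with a log2 change of 1.35 ± 0.31 (limma adjusted p = 0.0270). mt-Nd1 had 10076 and 9637 TPM, against 3795 to 10035 TPM (median 5723) in NSC, with a log2 change of 1.11 ± 0.27 (limma adjusted p = 0.0316). Unlike mt-Nd4l and mt-Nd4, mt-Nd1 overlapped NSC: the library labelled NBN P3 lay below NSC E10.5. mt-Nd5, mt-Nd3, mt-Nd2 and mt-Nd6 did not pass, with log2 changes of 1.09, 0.97, 0.96 and 0.91 (limma adjusted p from 0.112 to 0.248). Counted by overlap alone, 9 of 13 mitochondrial genes lay above every NSC library in both postnatal NBN libraries, against 2.09% of all genes tested. Those 9 were the called genes with mt-Nd5 in place of mt-Nd1.

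**Figure D2:**
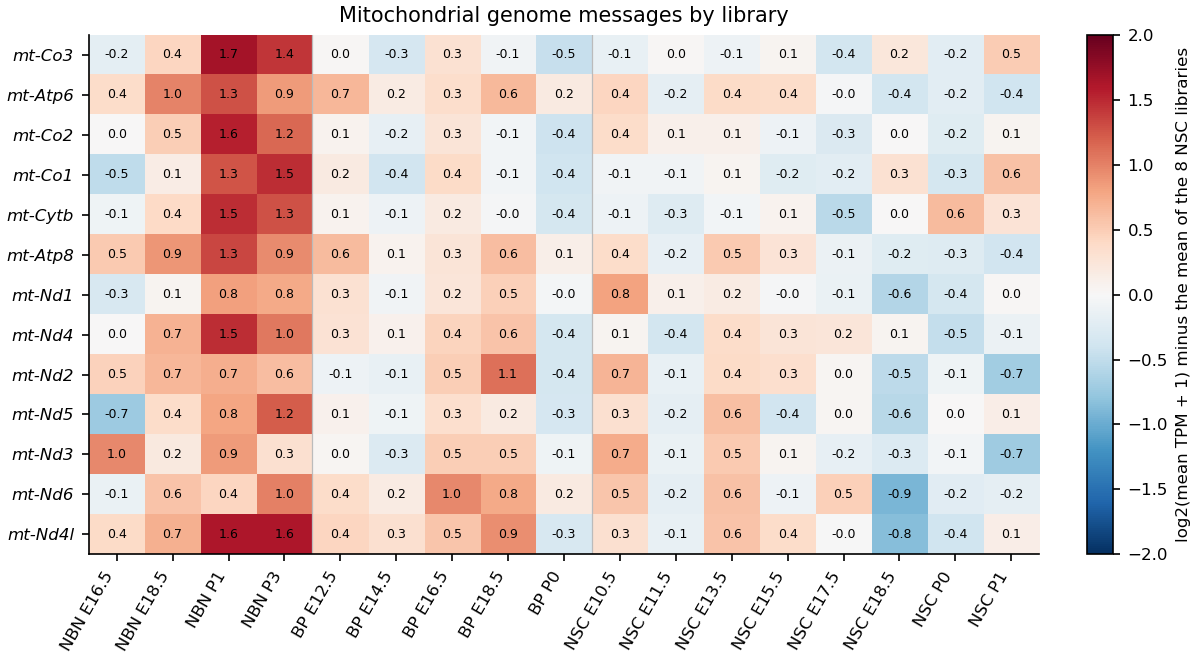
Level of each mitochondrial gene in each library, as log2(mean TPM + 1) minus the mean of the 8 NSC libraries, with NBN, BP and NSC libraries from left to right and the value printed in each square. The 2 postnatal NBN columns are positive for all 13 genes, and the NBN E16.5 column holds both signs.

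The mitochondrial calls rested on few libraries. For the alternative fits that follow, the share of all genes called is not given, so their counts are not read as results about the members. Without the library labelled NBN P3, 7 of 13 mitochondrial genes rose (mt-Co2, mt-Co3, mt-Atp6, mt-Atp8, mt-Cytb, mt-Nd4 and mt-Nd4l), and the median log2 change was 1.34. Without NBN P1, 6 rose (mt-Co1, mt-Co2, mt-Co3, mt-Atp6, mt-Atp8 and mt-Nd4l), with a median of 1.26. mt-Co2, mt-Co3, mt-Atp6, mt-Atp8 and mt-Nd4l passed in each of 17 fits that left out 1 library. No mitochondrial gene passed when only libraries from E16.5 on were used or when log2 was taken per cell before averaging, although all 13 changes stayed positive there (medians 1.38 and 1.78). A fit with stage as a factor gave changes from 0.61 to 1.71 (median 1.42). These are the differences of NBN P1 against NSC P1 given below, so that fit is not a separate check. With quantile normalization only mt-Nd4l passed (median 0.76). Removing cells that reached 500 TPM of other-type markers left 2 cells of the library labelled NBN P3, and 6 of 13 genes then had positive values.

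Postnatal NBN were next set against embryonic NBN, the same sort before birth. Here 0.32% of all genes tested were called, 0.0284% higher and 0.291% lower, and mt-Co2 was the only member called, with a log2 change of 1.24 ± 0.24 (limma adjusted p = 0.0378). It lost the call in 7 of 17 fits that left out 1 library. All 13 mitochondrial genes had positive values, with a median of 1.11 against −0.51 over all genes tested. By overlap alone, 9 mitochondrial and 19 nuclear members lay above both embryonic NBN libraries in both postnatal ones, against 8.73% of all genes tested, and 13 nuclear members lay below, against 30.9%. Without NBN P1 the members called included mt-Co1, mt-Co2, mt-Co3, Atp5o and Atp5g2 as higher and Ndufv2 as lower. Without the library labelled NBN P3 they were mt-Co2 and mt-Co3 as higher and Ndufs8 and Ndufv1 as lower. The nuclear genes in these lists were named after their values were seen, and the share of all genes called is not given for these fits. In the library labelled NBN P3, Atp5o had 1465 TPM over all cells and 629 TPM in cells with 1000 or more genes, and Atp5g2 had 410 and 144.7 TPM, a difference that 1 cell made.

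Stage matching kept the same direction at P1, where NBN P1 and NSC P1 also had like numbers of genes per cell (medians 3189 and 3371). All 13 mitochondrial genes were higher in NBN P1 than in NSC P1, with a median log2 difference of 1.42 and 9 past 2-fold, while 25.8% of all genes tested lay past 2-fold upward and 29.2% downward. Of 79 nuclear members tested, 62 were lower in NBN P1, 27 of them past 2-fold, with a median of −0.65 against 0.00 over all genes. After each cell was rescaled to its nuclear transcripts the medians were 0.85 for mitochondrial and −0.45 for nuclear members, with 4 mitochondrial genes past 2-fold higher and 21 nuclear ones past 2-fold lower (29% and 27.6% of all genes tested). This is 1 library against 1, with no replicate check. The library labelled NBN P3 against NBN P1 had 3 of 13 mitochondrial genes higher (median −0.19), or 12 of 13 after rescaling (median 0.21), and 51 of 79 nuclear members higher, 22 of them past 2-fold against 27% of all genes tested. There 2 nuclear members were past 2-fold lower, against 30.4%.

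**Figure D3:**
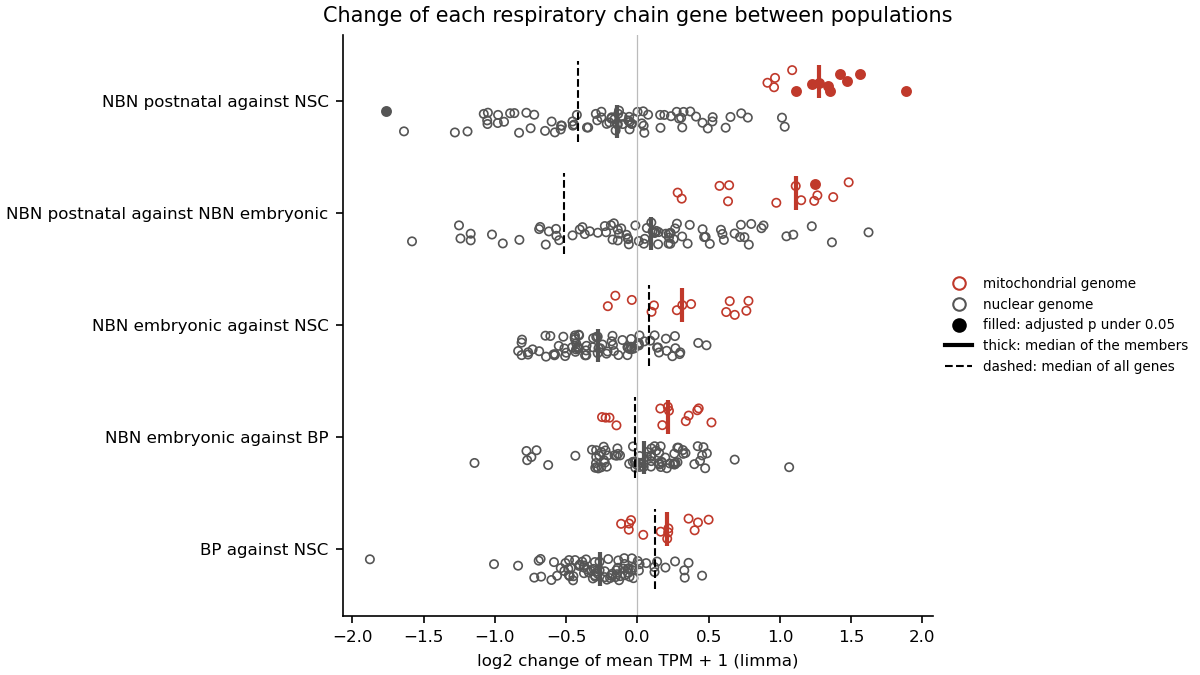
Log2 change of each mitochondrial (red) and nuclear (grey) member in 5 contrasts between populations; open circles are members, filled circles those called by limma, thick lines medians of the members and dashed lines medians of all 14072 genes tested. Mitochondrial members lie above the dashed line in both postnatal NBN contrasts.

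With all cells and libraries in the fit, no nuclear member was called higher. Per length they were far lower than the mitochondrial ones: medians over the genes of a complex were 212 TPM for complex I, 205 for complex II, 319 for complex III, 216 for complex IV and 455 for complex V, against 6506 TPM over the 13 mitochondrial genes. Their highest members were Ndufb9 in complex I (634 TPM over libraries), Sdhb, the iron-sulfur subunit of complex II (383 TPM), Uqcrh, the hinge subunit of complex III (606 TPM), Cox6a1 in complex IV (1387 TPM) and Atp5o, a stalk subunit of complex V (741 TPM). The rank of Ndufb9 comes from NSC P0, where it had 3960 TPM, or 289 TPM in cells with 1000 or more genes. Of the nuclear sum in complexes, 32.8% ± 1.81 lay in complex I, 26.9% ± 1.98 in complex V, 25.5% ± 2.11 in complex IV, 11.3% ± 1.01 in complex III and 3.63% ± 0.531 in complex II (SD, n = 17 libraries).

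The start regions of the highest members of 4 complexes are shown with that of Ndufc2, a membrane-arm subunit of complex I and the nuclear member called below. Nuclear respiratory factor 1 (NRF1) and GABPA are known activators of subunit genes. Each window runs from 250 bases before to 50 after a RefSeq gene start on GRCm38.p6, 5′ to 3′ on the gene's strand. Capitals mark matches, on either strand, to GCGCA, any base and GCGC for NRF1, CCGGAAG for GABPA, AAGATGGCG for YY1 and TCAAGGTCA for ERRA. The windows are chr5:115348909-115349208 (minus) for Cox6a1, chr4:140961021-140961320 (plus) for Sdhb, chr4:116075021-116075320 (minus) for Uqcrh, chr16:91931581-91931880 (minus) for Atp5o and chr7:97399753-97400052 (plus) for Ndufc2.
Cox6a1: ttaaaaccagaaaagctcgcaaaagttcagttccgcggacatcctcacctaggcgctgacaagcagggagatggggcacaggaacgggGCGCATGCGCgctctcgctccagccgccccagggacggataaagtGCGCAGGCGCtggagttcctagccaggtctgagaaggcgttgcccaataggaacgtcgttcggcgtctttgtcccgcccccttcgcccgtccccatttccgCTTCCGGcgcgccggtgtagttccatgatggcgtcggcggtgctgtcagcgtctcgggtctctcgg
Sdhb: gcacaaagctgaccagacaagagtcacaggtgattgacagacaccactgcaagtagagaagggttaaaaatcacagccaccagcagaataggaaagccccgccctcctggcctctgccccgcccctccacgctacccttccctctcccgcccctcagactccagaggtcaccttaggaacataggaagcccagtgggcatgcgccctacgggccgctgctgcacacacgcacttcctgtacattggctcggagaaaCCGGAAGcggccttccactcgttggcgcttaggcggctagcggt
Uqcrh: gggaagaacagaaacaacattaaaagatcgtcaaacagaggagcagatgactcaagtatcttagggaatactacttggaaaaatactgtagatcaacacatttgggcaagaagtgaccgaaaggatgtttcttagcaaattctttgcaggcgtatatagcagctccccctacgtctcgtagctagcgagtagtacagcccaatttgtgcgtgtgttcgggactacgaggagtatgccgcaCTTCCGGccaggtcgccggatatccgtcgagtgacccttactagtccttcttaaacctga
Atp5o: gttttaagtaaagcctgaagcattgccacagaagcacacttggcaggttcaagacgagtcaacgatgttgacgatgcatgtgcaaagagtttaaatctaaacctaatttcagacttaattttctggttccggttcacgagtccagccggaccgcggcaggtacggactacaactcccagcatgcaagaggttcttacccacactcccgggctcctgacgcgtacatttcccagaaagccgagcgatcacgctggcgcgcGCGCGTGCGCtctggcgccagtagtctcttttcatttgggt
Ndufc2: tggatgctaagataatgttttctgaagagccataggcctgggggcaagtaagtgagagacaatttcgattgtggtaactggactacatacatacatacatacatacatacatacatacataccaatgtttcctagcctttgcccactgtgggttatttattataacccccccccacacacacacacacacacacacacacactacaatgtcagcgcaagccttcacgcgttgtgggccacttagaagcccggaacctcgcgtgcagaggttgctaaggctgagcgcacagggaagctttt
Cox6a1 held 2 NRF1 matches and 1 GABPA match, Sdhb and Uqcrh 1 GABPA match each and Atp5o 1 NRF1 match, and none of the 4 motifs was found in these 300 letters of Ndufc2.

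A window was found by symbol for 69 of 85 nuclear members, 75 windows in all because some genes have several starts. NRF1 letters occurred in 24% of them, against 4.60% of all 32851 windows of the same length, GABPA letters in 21.3% against 8.86%, YY1 letters in 12% against 1.40% and ERRA letters in 2.67% against 0.423%. The members' windows were richer in G and C (median 57.3% against 52.7%). Among windows with 60% or more G and C, the shares were 33.3% against 10.9% for NRF1, 25.9% against 16.6% for GABPA and 7.41% against 2.62% for YY1. By gene, NRF1 letters stood in 7 of 31 complex I genes and 6 of 14 complex V genes, but in 1 of 14 complex IV genes. GABPA letters stood in 4 of 31, 5 of 14 and 3 of 14 of the same genes. The 14 complex IV genes include Cox8b, listed at 0 in every cell, and lack Cox4i1 and Cox6c, for which no window was found. A match is a description of letters, not of binding.

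In postnatal NBN against NSC, Ndufc2 was the only nuclear member called. It had 210 TPM in NBN P1 and 174.7 TPM in the library labelled NBN P3, against 199, 286, 427, 309, 340, 798, 517 and 694 TPM in the NSC libraries in age order. The log2 change was −1.76 ± 0.41 (limma adjusted p = 0.0263), in a model with 1 age slope shared by all populations. Ndufc2 had 450 and 234 TPM in NBN E16.5 and E18.5. Its increase with age in NSC did not pass the threshold, and no age slope was fitted in NBN. NSC E10.5 lay at the level of the postnatal NBN libraries, so the groups overlapped. Without an age term the change was −1.08 (limma adjusted p = 0.158), and without the library labelled NBN P3 it was −1.52 (limma adjusted p = 0.0801). Of 79 nuclear members tested, 52 had negative and 27 positive values, with a median of −0.14 against −0.41 over all genes tested. Without the library labelled NBN P3 the median was −0.29 with 59 negative, and without NBN P1 it was 0.08 with 35 negative, so the 2 libraries leaned to opposite sides.

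Some subunits differed several-fold between these 2 libraries and are named here after their values were seen. Ndufs8, an iron-sulfur subunit of complex I, had 14.7 TPM in NBN P1 and 320 TPM in the library labelled NBN P3, against 116 to 335 TPM in NSC. Atp5g3, which encodes the ring subunit of complex V, had 173 and 494 TPM, against 470 to 806 TPM in NSC. Ndufv1, the flavoprotein that accepts electrons from NADH, had 29.7 and 169 TPM, against 106 to 200 TPM in NSC. With the library labelled NBN P3 left out, these 3 were the nuclear members called lower. For that fit the share of all genes called is not given. Against all 8 NSC libraries, 7 nuclear members lay below in both postnatal NBN libraries, against 9.76% of all genes tested, and 2 lay above, against 2.09%.

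BP against NSC asked how the chain differs between stem cells and the progenitors they produce. Neuron markers were present in most BP cells and in a varying part of NSC cells, and their part in this comparison was not tested. No member passed, while 0.576% of all genes tested did (0.0569% higher and 0.519% lower). Of the members, 14 had an unadjusted p under 0.05, 12 nuclear ones with lower and 2 mitochondrial ones with higher values in BP. Here and below, no share of all genes at unadjusted p under 0.05 is given, so such counts are not read as results. The lowest limma adjusted p of a member was 0.17, for Atp5b, the catalytic beta subunit of complex V, with a log2 change of −0.48 ± 0.15. Atp5b was singled out after its values were seen. It had 663, 478, 482, 406 and 437 TPM in BP in age order, against 545 to 838 TPM in NSC, so BP E12.5 overlapped NSC. Uqcr10, a small subunit of complex III also named after its values were seen, was the only member below every NSC library in all 5 BP libraries (141 to 302 TPM in BP, against 306 to 472 TPM in NSC), against 0.704% of all genes tested. No member lay above every one, against 0.384%. Of the nuclear members 66 of 79 had negative values, with a median of −0.27 against 0.13 over all genes tested. By complex, negative values were given by 29 of 35 genes in complex I, 3 of 4 in complex II, 6 of 8 in complex III, 12 of 14 in complex IV and 14 of 15 in complex V. Without the 4 libraries with the fewest genes per cell, chosen after seeing the data, 57 were negative and the median was −0.15.

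The mitochondrial genes of BP split by complex. All 7 complex I genes and both complex V genes had positive values against NSC, and mt-Cytb and the 3 complex IV genes had negative ones, none of them called. The nearest to the threshold was mt-Atp6, at 0.42 ± 0.16 (limma adjusted p = 0.237). The libraries with the fewest genes per cell had the highest ratios of mt-Co3 to mt-Atp6: 2.48 in NBN P1, 2.81 in the library labelled NBN P3, 2.87 in NSC E18.5 and 3.51 in NSC P1. The other 13 libraries had 1.15 to 2.18, with NSC E11.5 the highest. The part of genes per cell in this ratio was not tested.

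**Figure D4:**
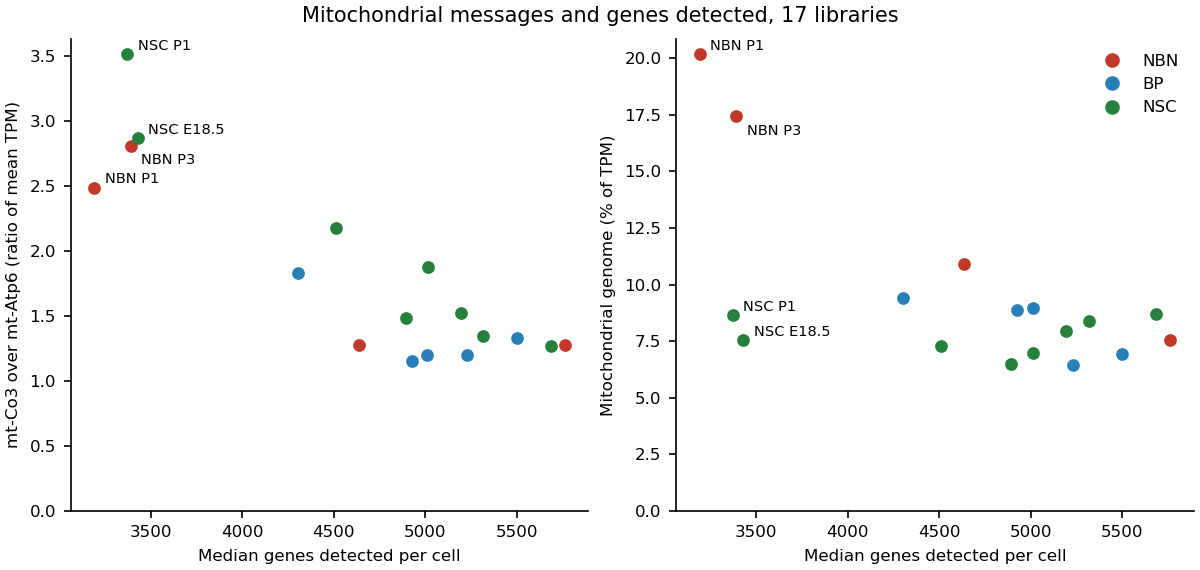
Ratio of mt-Co3 to mt-Atp6 mean TPM (left) and mean mitochondrial share in percent (right) against median genes per cell; each point is a library. The 4 libraries with the fewest genes have ratios from 2.48 to 3.51, and only the 2 postnatal NBN libraries among them have a mitochondrial share above 10.9%.

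In embryonic NBN the nuclear members leaned below NSC, and no member passed against either NSC or BP. Against NSC, 60 of 79 had negative values, with a median of −0.28 against 0.08 over all genes tested. Of all genes tested 1.01% were called (0.37% higher and 0.64% lower), and 7 members had an unadjusted p under 0.05. Sdhd and the complex III and I subunits Uqcrb, Uqcrh and Ndufa3, named after their values were seen, lay below every NSC library in both embryonic NBN libraries, against 4.31% of all genes tested, and no member lay above every one, against 6.84%. The nearest to the threshold were mt-Atp8, at 0.78 ± 0.22 (limma adjusted p = 0.101), and mt-Atp6, at 0.76 ± 0.22 (limma adjusted p = 0.117). Against BP, 2 members had an unadjusted p under 0.05, and 0.0142% of all genes tested were called, all of them lower (0% higher). Against every BP library, 3 nuclear members lay below (Sdha, Cox7a2l and Ndufb8; 6.13% of all genes tested) and Atp5e above (7.56%). In cells with 1000 or more genes 3 of these members overlapped: Uqcrb had 296 TPM in NBN E18.5, against 295 TPM in NSC E15.5, Sdha had 166 TPM in NBN E18.5, against 157 TPM in BP E12.5, and Atp5e had 380 TPM in NBN E18.5, against 392.2 TPM in BP E16.5. At E18.5, where all 3 populations were taken, the median nuclear difference was 0.00 for NBN against BP, −0.59 for NBN against NSC (65 of 79 lower) and −0.66 for BP against NSC (70 of 79 lower). Past 2-fold, 26 nuclear members were lower and 2 higher in NBN than in NSC (22% and 27% of all genes tested), 24 were lower and 2 higher in BP than in NSC (19.7% and 27.4%), and 2 were lower and 8 higher in NBN than in BP (21% and 18.6%). Of the mitochondrial genes, 5 were past 2-fold higher in NBN and 5 in BP than in NSC E18.5. NBN E18.5 and BP E18.5 also had more genes per cell (medians 4635.5 and 4926.5) than NSC E18.5 (3428), and the part of this in the difference was not tested. At P0 the median nuclear difference of BP against NSC was −0.03, with 3 members past 2-fold higher and 5 lower (22.6% and 20.5% of all genes tested). At E16.5 NBN had 3 of 13 mitochondrial genes above BP, with 2 past 2-fold lower. There 2 nuclear members were past 2-fold higher in NBN and 6 lower (24.2% and 13.6% of all genes tested), with a nuclear median of 0.09. In cells with 1000 or more genes, which leaves out 10 cells of BP E16.5, these were 0 higher and 2 lower (21.26% and 14.52%), the nuclear median was −0.07, and 2 of 13 mitochondrial genes lay above BP with 3 past 2-fold lower.

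**Figure D5:**
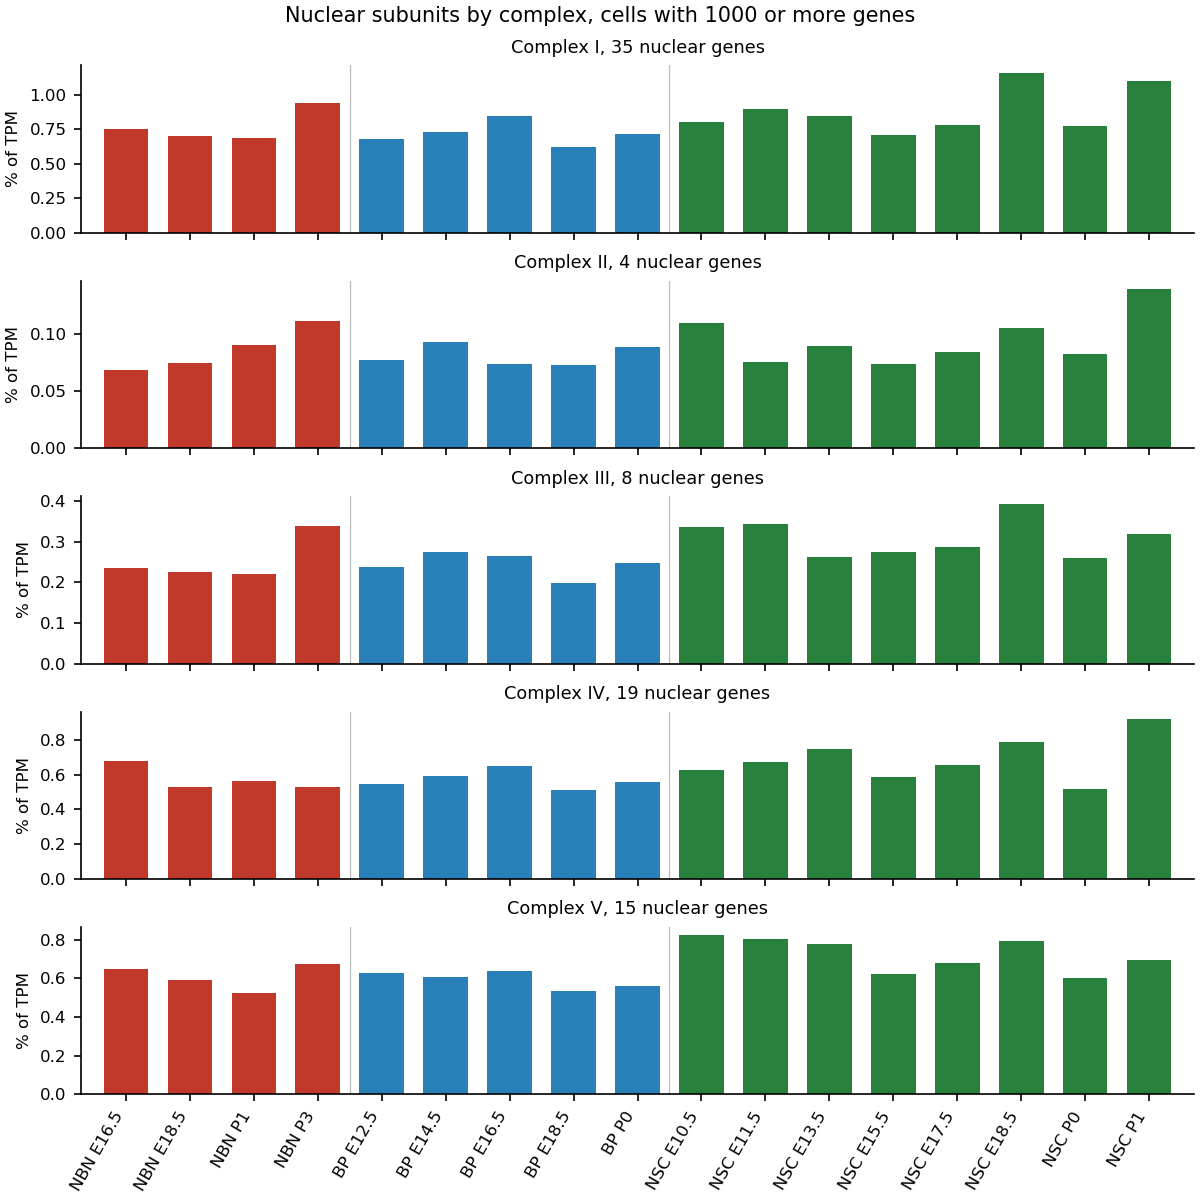
Summed nuclear TPM of complexes I to V as a percent of all TPM, in cells with 1000 or more genes, for NBN, BP and NSC libraries from left to right. Complex II is the smallest in all 17 libraries, and complex I the largest in all but NSC E10.5, where complex V is larger.

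Over age, no member's slope passed in NSC, where 1.7% of all genes tested passed (1.35% upward and 0.348% downward), and 9 members had an unadjusted p under 0.05. The closest was Ndufc2, which increased by 0.15 ± 0.04 log2 units per day (limma adjusted p = 0.0711). All 7 mitochondrial complex I genes and all 15 nuclear complex V genes had negative NSC slopes, with medians of −0.07 and −0.03 per day against 0.01 over all genes tested. In BP no gene of any kind passed (0% of genes tested), and 2 members had an unadjusted p under 0.05. For the difference of slopes, BP minus NSC, no gene passed either (0%), with 3 members under 0.05. When log2 was taken per cell before averaging, 49 members were called lower with age in NSC, 6 mitochondrial and 43 nuclear, as were 1802 genes over the whole table. The share of all genes tested is not given for that fit, so the count is not read as a result about the members. Median genes per cell in NSC ranged from 5688 at E10.5 to 3371 at P1, and the part of this was not tested.

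Alternative subunit genes showed which isoforms of the chain these cells transcribe. Cox4i1 made up 99.9% of its pair with Cox4i2, the isoform known from lung, and Cox6a1 and Cox8a made up 100% of their families, since Cox6a2, Cox8b and Cox8c, which include the heart and muscle isoforms, were listed at 0 in every cell. Cox6b1 took 98.5% of its pair. The testis isoform Cox6b2 reached 37.1 TPM in NSC E11.5. Cox7a2 took 51.1% and Cox7a2l, the supercomplex factor, 48.4% of theirs. Cox7a1, known from muscle, took 0.536% and was highest, at 17.8 TPM, in the library labelled NBN P3. The 3 genes for the identical mature ring subunit of complex V divided as 49.3% Atp5g3 and 33.2% Atp5g1, with Atp5g2 the lowest at 182 TPM over libraries. Of 98 members, 92 passed the filter on low values, the other 6 being Cox4i2, Cox6a2, Cox7b2, Cox8b, Cox8c and Ndufa4l2.

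Between the cells of a library the mitochondrial share varied far more than the nuclear one. From the 10th to the 90th percentile of cells it spanned 2.91-fold to 10.6-fold by library, against 1.42-fold to 2.92-fold for the nuclear share. Cells with over 20% mitochondrial TPM made up 18 of 39 in NBN P1 (46.2%, exact 95% interval 30.1 to 62.8, counting error only) and 10 of 40 in the library labelled NBN P3 (25%, 12.7 to 41.2). They were 3 of 63 in NBN E16.5 and 10 of 70 in NBN E18.5, 0% to 11.2% of cells in BP and 2.33% to 6.82% in NSC. In NBN P1 the 18 such cells had a median of 2803 genes, and immediate early genes, which mark recent stimulation, were listed at 0 in 15 of them. The other 21 cells had a median of 4021 genes and no immediate early transcript in 6. Their median mitochondrial share was 7.95%, against 5.76% in the 44 NSC P1 cells at 20% or less. The part of RNA quality in the NBN P1 difference was not tested. With all cells over 20% removed from every library, chosen after seeing the data, 3 of 13 mitochondrial genes rose against NSC (mt-Co2, mt-Co3 and mt-Cytb), all 13 values stayed positive and the median was 0.70. In that fit Atp5g1 and Atp5e were also called higher, which were named after their values were seen. The share of all genes called in it is not given, so these calls are not read as results about the members.

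In the library labelled NBN P3 the mitochondrial share did not single out a marker class. Its median was 12.9% in the 17 cells with microglial markers, 15.0% in the 12 with meningeal markers, 17.9% in the 7 with endothelial markers and 12.1% in the 8 with neuron markers, with some cells in more than 1 class.

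Complexes of the same genome went together from cell to cell, and those of different genomes did not. As a description over the cells of each library, the median Spearman correlation between the summed TPM of a pair of complexes was 0.79 within the mitochondrial genome, positive in 100% of pairs and libraries. It was 0.22 within the nuclear genome, positive in 88.2%, and −0.13 between the genomes. All points of a library share its depth and the closed TPM scale, which ties the sums to one another. Across cells the mitochondrial share went with fewer genes in NBN P1 (rho −0.54) and in the library labelled NBN P3 (rho −0.36), and with the nuclear share it was lowest in NBN P1 (rho −0.42) and highest in NSC P1 (rho 0.12).

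Pathway lists around the chain were read in the same fits. In postnatal NBN against NSC, 1 of 38 assembly factors tested was called (Tmem70, which helps to assemble complex V, at −2.63, limma adjusted p = 0.0250). Of 17 genes for upkeep and expression of the mitochondrial genome, 2 fell and none rose: Polg, the replicative polymerase of mitochondrial DNA (−5.26, limma adjusted p = 0.00325), and Pnpt1, a mitochondrial RNA exonuclease (−3.92, limma adjusted p = 0.0112). Polg had 0.0215 and 0.0416 TPM in the postnatal NBN libraries, against 1.85 to 54.9 TPM in NSC, and Pnpt1 had 0 and 5.33 TPM, against 17.0 to 46.9 TPM. Both are low genes, with means of 17.7 and 30.9 TPM in NSC, and 2.78% of all genes tested were called lower in this contrast. The part of few cells and few genes per cell in these values was not tested. The same 2 genes were called lower against embryonic NBN (−4.67 and −4.29, limma adjusted p = 0.0426 and 0.0403), as were 0.291% of all genes tested. Of 19 glycolysis genes, Ldhb, the lactate dehydrogenase subunit B gene, fell (−1.35, limma adjusted p = 0.0231). None of 12 biogenesis regulators, 19 genes of the TCA cycle and pyruvate entry, 28 genes of carriers, import and cristae or 13 chain subunits and carriers outside the symbol rule was called, while 3.11% of all genes tested were.

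In embryonic NBN against NSC, the ADP/ATP carrier Slc25a5 fell (−1.35, limma adjusted p = 0.0456), to 596 and 647 TPM, against 1093 to 3066 TPM in NSC. It was 1 of 28 in its list, against 1.01% of all genes called. In BP against NSC, 1 of 19 glycolysis genes was called: Aldoc, an aldolase of astroglia (−7.29, limma adjusted p = 0.00558), at 0 to 5.73 TPM in BP, against 2.62 to 3036 TPM in NSC, while 0.576% of all genes tested were called. Of the 19, 14 had negative values, with a median of −0.66 against 0.13 over all genes. An unadjusted p under 0.05 was found for 8, all lower, with no share of all genes given. With age in NSC, the glycolysis genes Pkm, Tpi1 and Gapdh decreased (−0.26, −0.32 and −0.19 log2 units per day, limma adjusted p = 0.000265, 0.00614 and 0.0310) and Aldoc increased (0.87, limma adjusted p = 0.00116), while 1.7% of all genes tested were called. Of the 19, 15 had negative slopes, with a median of −0.15 against 0.01 over all genes. Mpc1, a subunit of the mitochondrial pyruvate carrier, increased in the same libraries (0.27, limma adjusted p = 0.00614).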

How the data were processed

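The deposited tables hold TPM per gene and cell. Per the submitters' processing notes, kallisto 0.43.0 made them, and the builds named are GRCm38.p2 and mm10. Cells were captured on the Fluidigm C1 and amplified with the SMARTer kit, per the labels' protocols. For 7 cells with few genes the deposited values are all whole, so they were treated as a score and used as TPM. TPM keep no counts, so depth is unknown, no count model was used, and precision is described by 39 to 89 cells per library and genes per cell.

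The mean TPM over cells plus 1 was put on a log2 scale. This understates changes of low genes. Genes at a mean of 1 TPM or more in at least 4 libraries entered two-sided linear models (R 4.3.3, limma 3.58.1, eBayes with trend). Populations were compared with age as a covariate (postnatal age is 18.5 plus the labelled days). The labelled days are higher than the numbers in the postnatal stage names. The models therefore placed NSC P0 and BP P0 at age 19.5. NSC P1 and NBN P1 were placed at 20.5, and the library labelled NBN P3 at 22.5. Slopes used the 13 NSC and BP libraries, with NBN left out. Fits were tested on simulated data. Tables and figures were made with Python 3.11.15, NumPy 2.4.6, pandas 2.3.3, SciPy 1.17.1 and matplotlib 3.10.9. Promoter windows are from RefSeq (GRCm38.p6). All 98 members matched GENCODE M21.

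All cells were kept, 23 with under 1000 genes and 11 with under 50. None of 1094 cells duplicated another. Members and lists were chosen with earlier results of these data known. Named genes are all 13 mitochondrial genes, the highest nuclear member of each complex, called members, alternative subunit families and up to 4 called genes per pathway list and contrast. Others are said to be chosen after their values were seen. The result of 1 called member in a fit without NBN P1 is not reported here. Alternatives changed pseudocount, filter, averaging, scaling, age term, cells and libraries.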

Additional observations from a re-analysis of the deposited data

Results flagged for a closer look

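Of 75 sets of library values tested for a single distant library, 9 were marked. Most of the 9 were genes near 0 carried by few cells. The nominal chance rate of about 1 in 20 was not checked for such genes, so no excess is read from the count. Cox4i2 had 6.01 TPM in NSC P0, from 3 of 48 cells, against 0 to 0.275 TPM in the other NSC libraries. Cox6b2 had 6.27 TPM in BP E12.5, from 3 of 72 cells, against 0 to 0.652 TPM in other BP libraries, and Cox7a1 had 6.70 TPM there, from 1 of 72 cells, against 0 to 0.353 TPM. Ndufa4l2, a complex IV-associated homologue known from hypoxic cells, had 3.23 TPM in BP E12.5 from 2 of 72 cells, and 2.76 TPM in NSC E11.5 from 3 of 59 cells. Cox7b2 had 1.02 TPM in NSC P1, from 1 of 47 cells.

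Well-expressed members were also marked. Ndufb9 had 3960 TPM in NSC P0, against 358 to 588 TPM in the other NSC libraries, and 289 TPM there in cells with 1000 or more genes. Cox7a2 was lowest in BP P0, at 215 TPM, against 284 to 308 TPM in other BP libraries. The ratio of mt-Co3 to mt-Atp6 was 1.83 in BP E16.5, against 1.15 to 1.33 in other BP libraries.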

How the results depend on the processing

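No paired analysis was possible because the replicate numbers of the labels only name cells, and libraries share none. The number of members called in postnatal NBN against NSC (10) was 0 from E16.5 on, 1 with the mean of log2 over cells and 2 with quantile normalization. It was 3 with no filter on low genes, 5 without cells over 20% mitochondrial and 2 with NBN as 1 population. The fit with NBN as 1 population also gave 2 beside the 0 of embryonic NBN against NSC. Without cells with markers of another type it was 30, of which only mt-Nd4 and mt-Nd4l were mitochondrial and the rest nuclear. With stage as a factor this contrast is NBN P1 against NSC P1 alone. The shares of all genes called in these fits and those below are not given, so the counts are not read as results about the members. In postnatal against embryonic NBN (1 called) it was 0 in cells with 1000 or more genes, from E16.5 on, with no filter, pseudocount 10, quantile normalization, rescaling to the nuclear genome, stage as a factor and without NSC E11.5 and NSC E15.5. It was 2 with no age term, without cells over 20% mitochondrial and without cells with markers of another type, and 3 with pseudocount 0.1. For the NSC slope it was 49 with the mean of log2 over cells. Without cells with markers of another type, 6 of 13 mitochondrial changes were above 0 in each postnatal NBN contrast, and 5 called changes turned sign: mt-Co2 to −0.63 against embryonic NBN, and mt-Co2 to −0.36, mt-Atp8 to −0.42, mt-Atp6 to −0.38 and mt-Nd1 to −0.30 against NSC. The causes were not tested, except that this setting leaves 2 cells in the library labelled NBN P3. Leaving out 1 library gave 8 to 10 members in postnatal NBN against NSC, 0 to 7 in postnatal against embryonic NBN and 0 to 0 in each other contrast. Without the 4 libraries with the fewest genes per cell, the postnatal NBN contrasts have no libraries.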
